A study of Mus musculus with 20 samples.

Results

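Tripartite motif (TRIM) proteins are ubiquitin ligases built from a RING domain, 1 or more B-boxes and a coiled coil, with a C-terminal domain that picks the substrate. Members were chosen by name: every gene on the array called Trim and a number, except Trim63, with a probe away from the edge of the array. This gave 54 genes with 95 probes, of 25124 gene names read from that area. Of the 54, 38 passed the filter on dim probes and were tested, among 14655 genes in all. The RING domain passes ubiquitin from a conjugating enzyme to a target protein, and the C-terminal domain differs between subfamilies. In muscle, the muscle RING finger proteins sit on titin and microtubules and mark sarcomere proteins for turnover. In most other tissues the family is known for transcriptional corepressors and for a large group that senses or restricts viruses, many of them induced by interferon.

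The EDL (extensor digitorum longus), a muscle of mostly fast fibres, was taken from 10 C57Bl6 males that were 8 weeks old at the injection of recombinant adeno-associated virus (rAAV6). In every animal the left leg carried the empty vector, and the right leg carried vectors for HDAC4 with D832N and HDAC5 with D861N, dominant-negative forms of these class IIa histone deacetylases (dnHDAC4/5). Each injection held 30 µL, with 2.5e+10 vector genomes of each mutant vector, and 4 weeks later 5 animals received Scriptaid, a histone deacetylase inhibitor, and 5 received vehicle (5% DMSO). The 4 groups have 5 arrays each: in vehicle animals EV is the left leg with empty vector and HV the right leg with dnHDAC4/5, and in Scriptaid animals ES is the left leg and HS the right. Vector and leg side therefore cannot be told apart. The sample titles of ES name vehicle, but its other labels name Scriptaid and were followed. The promoter in the vectors, the Scriptaid dose and the time from drug to tissue are not given in the sources used here.

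Values are log2 of the processed intensity minus the array's own 75th percentile, so 0 is the brightness that 75% of spots lie under. That percentile ran from 257 to 616 intensity units over the 20 arrays, and 51.9% to 62.6% of the spots were well above background. The fast-fibre markers summed to between 8.87 and 10.06 on every array. That sum was highest on HS 1, which had the lowest percentile (257), and was 8.89 on ES 3, which had the highest (616). It therefore followed the scaling of the arrays and is not read as fibre content. EV 1 and HS 2 stood apart from the other 18: red blood cell markers summed to 3.84 and 4.45 there, against -0.42 to 1.63 elsewhere. Both also lay above the other 18 in the summed markers of Schwann cells (3.35 and 2.47, against at most 1.97), of fibroblasts and tendon (6.42 and 7.12, against at most 6.33) and of lymphocytes (0.34 and 1.05, against at most 0.31). Slow-fibre markers summed to 6.72 on EV 1, 6.47 on EV 2 and 5.71 on HS 2, against at most 4.37 elsewhere. On EV 5, 0.932% of spots fell short of the other arrays' median by over 3 on the log2 scale, the highest share of the 20. Intensity depends on the probe as well as the transcript, so no member's level is set against another's. Whether fewer cells of a type or less RNA per cell lies behind a difference cannot be told apart in whole muscle.

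Of the 38 tested members, 33 were well above background on every array where their spot was kept. Trim62, Trim17, Trim14, Trim5 and Trim6 were not, and Trim5 and Trim6 were not well above background on any EV array. The other 16 of the 54 were not tested: 7 were above background on no array, and 9 on 1 to 4 arrays.

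The vector comparisons ask what dnHDAC4/5 changed against an empty vector in the other leg of the same animal. Trim35 was the only member that passed limma's test, and it did so with the vector effect averaged over both drug arms. There it fell by 0.74 ± 0.13 on the log2 scale (SE over 20 arrays, legs not paired in the fit, limma adjusted p = 0.024). It was lower in 10 of 10 right legs. So 1 of 38 members was called, where 43 of 14655 genes (0.293%) were, 21 of them higher and 22 lower (0.15% of all genes lower). In vehicle animals alone 0 members and 0% of all genes passed, and in Scriptaid animals alone again 0 members and 0% of all genes. At an unadjusted p under 0.05 the averaged comparison held 5 members (Trim35, Trim16, Trim66, Trim41 and Trim8), where 10.5% of all genes were under it. In vehicle animals 2 members were under it (Trim35 and Trim16) beside 4.95% of all genes, and in Scriptaid animals 4 were (Trim35, Trim16, Trim66 and Trim55) beside 8.73%.

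As a family the members stayed near 0 in every comparison. Averaged over both arms the vectors gave a median change of -0.03 over the 38, with 13 higher and 25 lower, against a median of -0.001 over all genes, of which 49.7% were higher. Of the 38, 31 changed by less than 0.25 in either direction, as did 78.4% of all genes.

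**Figure D1:**
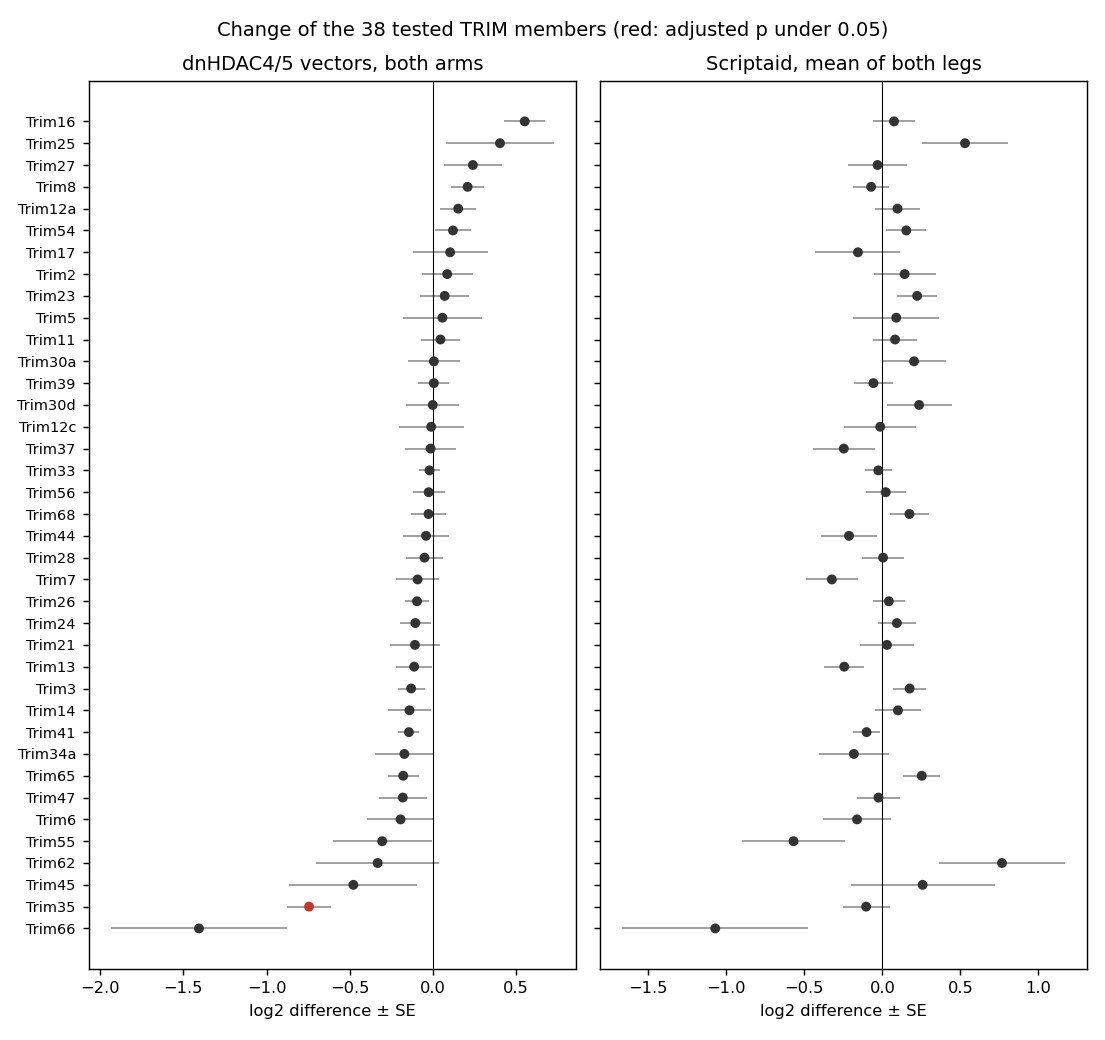
Log2 difference ± SE of each of the 38 tested members, for the dnHDAC4/5 vectors over both drug arms (left panel) and for Scriptaid on the mean of both legs (right panel), ordered by the left panel. Trim35, at -0.74, is the single red point; Trim66 lies lower, at -1.41, with a wide error, and Trim16 is highest at 0.55.

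Trim35 is a RING ubiquitin ligase first described in blood cell lineages. In vehicle animals its log2 values were 3.20, 3.18, 3.44, 3.26 and 3.63 on EV 1 to 5, and 2.29, 2.17, 3.10, 2.08 and 2.92 on HV 1 to 5. In Scriptaid animals they were 3.03, 3.46, 3.07, 3.17 and 3.03 on ES 1 to 5, and 2.44, 2.20, 2.98, 2.43 and 2.42 on HS 1 to 5. In both arms every right leg lay below every left leg, with the narrowest gap on HV 3 and HS 3. The group means were 3.34 ± 0.19 (SD, n = 5) for EV, 2.51 ± 0.46 (SD, n = 5) for HV, 3.15 ± 0.18 (SD, n = 5) for ES and 2.49 ± 0.29 (SD, n = 5) for HS. Taken alone, the difference was -0.83 ± 0.19 (SE) in vehicle animals (limma adjusted p = 0.434) and -0.66 ± 0.19 in Scriptaid animals (adjusted p = 0.261), and neither passed. The interaction of vector and drug was 0.17 ± 0.27 (limma adjusted p = 1.00), so the size of the fall was not shown to depend on Scriptaid.

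Within animals the Trim35 difference ran from -1.25 to -0.09, with a median of -0.73. It was the 1 of 35 members read in all 10 pairs of legs that was lower in every pair, where 1.46% of all genes were. The call was lost without EV 4, HV 1, HV 2, ES 2, HS 4 or HS 5, with adjusted p up to 0.0639 by limma. It was also lost with normexp background correction, where the fall was 0.55 on the log2 scale (-0.55 ± 0.17, limma adjusted p = 0.297), with the mean of its probes (-0.82 ± 0.22, adjusted p = 0.104) and without EV 1 and HS 2 together (-0.73 ± 0.14, adjusted p = 0.0521).

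Trim35 was read by 3 probes that passed, and the brightest, A_51_P373777, stood for it. All 3 were lower in right legs in the averaged comparison. Tested by itself, A_51_P373777 differed by -0.74 ± 0.13 (limma adjusted p = 0.0284), A_52_P383913 by -1.13 ± 0.45 (adjusted p = 0.361) and A_52_P45738 by -0.59 ± 0.25 (adjusted p = 0.406). The dimmer pair carried errors of 0.45 and 0.25 and did not pass.

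Trim16 lacks a RING domain and takes part in the autophagic removal of damaged lysosomes. It read 2.65, 2.81, 2.90, 2.79 and 2.98 on EV 1 to 5, and 3.53, 3.48, 3.03, 3.50 and 2.99 on HV 1 to 5. In Scriptaid animals it read 2.74, 2.65, 3.13, 2.84 and 2.77 on ES 1 to 5, and 3.77, 2.81, 3.56 and 3.68 on HS 1, 2, 3 and 5, the spot of HS 4 being left out. HV 1, 2 and 4 and HS 1, 3 and 5 stood clear of all left legs, while HV 3, HV 5 and HS 2 lay among or close to them. Right legs were higher in 9 of 9 animals, by 0.01 to 1.03. The averaged difference was 0.55 ± 0.12 (SE over 19 arrays, legs not paired in the fit) and did not pass (limma adjusted p = 0.0621). It was 0.48 ± 0.17 in vehicle animals (adjusted p = 0.751 by limma) and 0.63 ± 0.18 in Scriptaid animals (adjusted p = 0.261).

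The averaged Trim16 difference passed without HS 2 (0.66 ± 0.10, limma adjusted p = 0.0129), without HV 5 (0.0279) or without HV 3 (0.0495), and without EV 1 and HS 2 together (0.64 ± 0.10, adjusted p = 0.0253). With the mean of its probes it was 0.29 ± 0.11 (limma adjusted p = 0.335), and with normexp background correction 0.47 ± 0.15 (adjusted p = 0.327). Its brightest spot lies in column 76, 2 columns from the edge zone, where some members' probes read low on HS arrays and others high. Its 3 probes that passed begin with different bases, as the first 30 of their 60 bases show. They are given 5′ to 3′ as in the files with the probe that stood for the gene first.
A_51_P502580: tagggatcttcaaaccataacaagactgca
A_52_P325477: tgacctgcaaaggcattgaccgtaaggggg
A_52_P212650: taaccaagtaagaacatatacttatcccta
A_51_P502580 gave the value above, A_52_P325477 differed by 0.40 ± 0.13 (limma adjusted p = 0.196) and A_52_P212650 by 0.12 ± 0.09 (adjusted p = 0.709). All 3 pointed up, at different sizes.

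**Figure D2:**
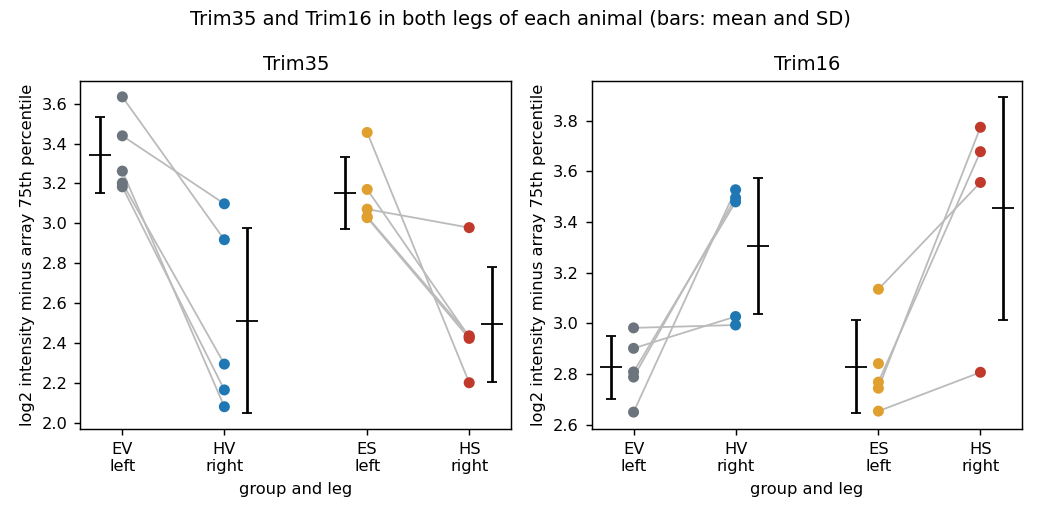
Log2 value of Trim35 and Trim16 in the left (EV, ES) and right (HV, HS) leg of each animal, with lines joining the legs of an animal and black bars for the group mean and SD. Trim35 is lower in the right leg of 10 of 10 animals, and Trim16 is higher in 9 of 9, by only 0.01 in the animal of slide 5 in the vehicle arm.

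Groups that did not overlap were found for 2 of 38 members in vehicle animals (Trim35 lower, Trim16 higher), where 0.669% of all genes had none. In Scriptaid animals 1 of 38 did not overlap (Trim35, lower), where 1.15% of all genes were lower without overlap. Of the markers of other cells, Scx, a tendon transcription factor, was the 1 gene of the marker lists that passed (1.32 ± 0.25, limma adjusted p = 0.0277). The fibroblast and tendon markers (6 of 6 measured, 5 of them read on every array) summed to 4.67 to 6.42 in EV, 5.15 to 6.33 in HV, 4.42 to 5.00 in ES and 4.52 to 7.12 in HS. Over 9 animals the leg difference of Trim16 ran against that of this sum (r = -0.79, exact permutation p = 0.00104 within arms; rho = -0.93, p = 0.00104; adjusted p = 0.0198 over 19 relations). Without the 2 animals farthest out, r was -0.70. With the fast-fibre sum it ran the same way (r = 0.81, exact permutation p = 0.00868, adjusted p = 0.0825; rho = 0.87, p = 0.00417; r = 0.81 without the 2 farthest), and with the lymphocyte sum against it (r = -0.63, p = 0.0965, adjusted p = 0.534; rho = -0.73, p = 0.042; r = -0.30 without the 2 farthest). The fast-fibre sum followed the scaling of the arrays, as given above, so its relation with Trim16 was not separated from that scaling. For Trim35 the relation with the fibroblast and tendon sum gave r = -0.38 over 10 animals (exact permutation p = 0.359, adjusted p = 0.62, rho = -0.16, p = 0.666, r = 0.25 without the 2 farthest). Trim35 and Trim16 differences were not related to each other over 9 animals (r = -0.15, exact permutation p = 0.717; rho = -0.03, p = 0.961; r = -0.63 without the 2 farthest). The part of other cells in these results was not tested further.

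Scriptaid was compared with vehicle in left legs, in right legs and on the mean of both legs of an animal. limma called 0 members in each. Over all genes it called 0%, 0.00682% and 0%. At an unadjusted p under 0.05, 1 member lay under it in left legs (Trim13) beside 4.05% of all genes, 3 in right legs (Trim55, Trim66 and Trim65) beside 7.1%, and 0 on the mean of both legs beside 5.07%. The median over the 38 was 0.04 in left legs, -0.03 in right legs and 0.03 on the mean of both, against 0.01 over all genes in each. The comparisons within left legs and on both legs share arrays, so their values are not independent. The interaction of vector and drug had 0 members called and 0% of all genes, with 1 member (Trim55) at an unadjusted p under 0.05 beside 2.05% of all genes.

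Of 5 muscle members listed 3 were tested, and 0 passed in any comparison. Trim54, a muscle RING finger protein that steadies microtubules and titin, read 6.79, 6.92, 7.27, 7.31 and 7.20 on EV 1 to 5, and 7.23, 6.95, 7.09, 7.25 and 7.19 on HV 1 to 5. It read 7.21, 7.29, 6.81, 7.09 and 7.38 on ES 1 to 5, and 7.67, 7.06 and 7.32 on HS 1, 2 and 4. The groups overlapped, 2 HS spots were left out and 1 array had a saturated spot, which caps its value. Like that of Trim16, the Trim54 spot lies in column 76, 2 columns from the edge zone. Trim54 read highest on HS 1, the array with the lowest 75th percentile (257), and 6.81 on ES 3, which had the highest (616). Its values thus followed the array scaling in part, and its differences were not separated from that scaling. The averaged vector difference was 0.12 ± 0.11 (SE; limma adjusted p = 0.778) and the Scriptaid difference on both legs was 0.15 ± 0.13 (adjusted p = 0.965), the latter over animals with both legs read.

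Trim55, the muscle RING finger protein that binds titin next to the myosin filament, varied most among the muscle members. It read 1.33, 0.06, 1.08, 2.03 and 1.19 on EV 1 to 5, and 1.36, 2.05, 0.91, 1.77 and 1.52 on HV 1 to 5. It read 1.35, 2.22, 0.59, 1.28 and 0.85 on ES 1 to 5, and -0.35, 1.89, 0.22, 0.08 and -0.54 on HS 1 to 5. HS 1, 3, 4 and 5 lay low, HS 2 lay among the other groups, and EV 2 was as low as the low HS arrays. On every slide the HS leg was below the HV leg and below the ES leg. Against HV the difference was -1.26 ± 0.42 (SE, n = 5 and 5; limma adjusted p = 0.472) and against ES -0.996 ± 0.42 (adjusted p = 0.49). The interaction was -1.38 ± 0.60, below 0 on 5 of 5 slides (limma adjusted p = 1.00). None passed over all genes.

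Trim7, a partner of glycogenin, the primer of glycogen, read -1.43, -1.82, -1.59, -1.71 and -1.47 on EV 1 to 5 and -1.67, -1.85, -1.50, -1.51 and -1.89 on HV 1 to 5. It read -1.89, -2.30, -1.72, -1.53 and -2.14 on ES 1 to 5 and -1.84, -2.45, -1.77, -1.53 and -2.52 on HS 1 to 5. ES 2, ES 5, HS 2 and HS 5, both legs of 2 animals, lay lowest, and ES 1 was level with the lowest vehicle leg, HV 5. On the mean of both legs Scriptaid animals differed by -0.32 ± 0.17 (limma adjusted p = 0.965), lower on 4 of 5 slides.

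Trim32, a ligase of sarcomere proteins whose human gene is mutated in a limb-girdle dystrophy, had 1 probe away from the edge, which was not well above background on 18 of 20 arrays and was not tested. Its edge probe was well above background on 20 of 20. That probe read 0.61, 0.87, -0.39, 0.86 and 0.60 on EV 1 to 5, and 0.58, 0.10, 0.92, 0.86 and -0.15 on HV 1 to 5. It read 0.14, 0.68, 0.66, 0.84 and 0.74 on ES 1 to 5, and -0.27, 0.45, 0.70, 0.83 and -1.83 on HS 1 to 5. HS 5 was the lowest, and nothing is drawn from it, since in that zone some members' probes read low on HS arrays and others high. Trim72, the membrane repair protein of muscle, is not among the gene names read.

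**Figure D3:**
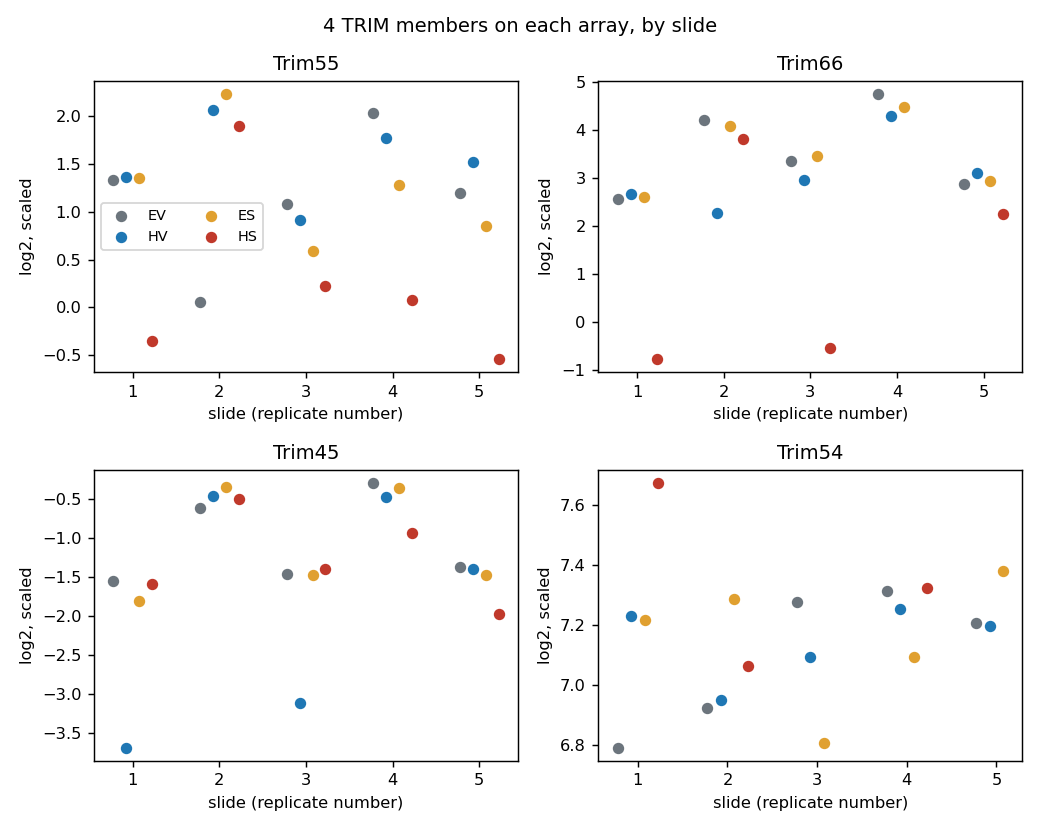
Log2 value of Trim55, Trim66, Trim45 and Trim54 on each array, by slide, which is also the replicate number, with 1 point per array coloured by group. Trim55 is low on HS 1, 3, 4 and 5 (0.22 and below), and Trim66 on HS 1 and HS 3. Trim45, by its probe away from the edge, lies higher on slides 2 and 4 in all 4 groups. The spots of Trim66 on HS 4 and of Trim54 on HS 3 and HS 5 were left out.

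The chromatin members form the TIF1 group, corepressors that carry a PHD finger and bromodomain. All 4 were measured and 0 passed in any comparison. Trim24, which reads histone tails beside nuclear receptors, gave 2.69, 3.34, 3.14, 3.44 and 3.27 on EV 1 to 5, and 2.79, 2.94, 3.06, 3.21 and 3.05 on HV 1 to 5. It gave 3.15, 3.26, 2.94, 3.41 and 3.27 on ES 1 to 5, and 3.17, 3.01, 3.08, 3.37 and 3.18 on HS 1 to 5. The groups overlapped throughout, with an averaged vector difference of -0.11 ± 0.09 (limma adjusted p = 0.772).

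Trim28, the corepressor that zinc finger proteins recruit to silence transposons, gave 0.80, 1.64, 1.81, 1.60 and 1.75 on EV 1 to 5 and 1.52, 1.53, 1.76, 1.75 and 1.66 on HV 1 to 5. It gave 1.59, 1.66, 1.75, 1.69 and 1.80 on ES 1 to 5 and 1.41, 1.12, 1.51, 1.63 and 1.69 on HS 1 to 5. EV 1 and HS 2, the arrays that stood apart in several marker sums, were the lowest of their groups. The difference of HS from ES was -0.22 ± 0.16, lower in 5 of 5 animals (limma adjusted p = 0.755), and the interaction was -0.34 ± 0.22 (adjusted p = 1.00). Without EV 1 and HS 2 the interaction was -0.08 ± 0.13 (limma adjusted p = 1.00).

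Trim33, which acts on SMAD proteins, was the steadiest of the group. It gave 0.60, 0.62, 0.84, 0.84 and 0.61 on EV 1 to 5, and 0.75, 0.67, 0.88, 0.74 and 0.70 on HV 1 to 5. It gave 0.70, 0.72, 0.85, 0.69 and 0.73 on ES 1 to 5, and 0.83, 0.69, 0.65, 0.67 and 0.44 on HS 1 to 5. Its SD over 20 arrays was 0.11, against a median SD of 0.32 over the 38 members. The averaged vector difference was -0.02 ± 0.06 (limma adjusted p = 0.954) and the Scriptaid difference on both legs was -0.03 ± 0.09 (adjusted p = 0.991).

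Trim66, the TIF1 member best known from testis, gave 2.55, 4.20, 3.36, 4.74 and 2.86 on EV 1 to 5, and 2.67, 2.27, 2.95, 4.29 and 3.10 on HV 1 to 5. It gave 2.60, 4.09, 3.46, 4.47 and 2.93 on ES 1 to 5, and -0.78, 3.82, -0.55 and 2.25 on HS 1, 2, 3 and 5. HS 1 and HS 3 lay far under every other array, the spot of HS 4 was left out, and HS 2 lay in the range of the other groups. The difference of HS from ES was -2.33 ± 0.77 (limma adjusted p = 0.354) and that from HV was -1.87 ± 0.77 (adjusted p = 0.619), and the latter was -1.22 without HS 1, -1.29 without HS 3, -2.22 without HS 5 and -2.75 without HS 2. Its second probe away from the edge did not pass the filter on dim probes, so the difference rests on 1 probe, and it did not pass.

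In left legs the smallest p-value of a member belonged to Trim13. Trim13, a ligase anchored in the endoplasmic reticulum, gave 1.05, 0.85, 1.09, 1.14 and 1.17 on EV 1 to 5, and 0.70, 0.73, 0.43, 0.66 and 0.99 on ES 1 to 5. In right legs it gave 0.89, 0.67, 0.76, 0.95 and 0.89 on HV 1 to 5, and 0.76, 0.03, 0.76, 0.85 and 1.104 on HS 1 to 5. Left legs of Scriptaid animals were lower on 5 of 5 slides, by 0.36 on average (-0.36 ± 0.15; limma adjusted p = 1.00), and right legs on 4 of 5 (-0.13 ± 0.15, adjusted p = 0.916). Its second probe that passed, A_52_P17788, differed the other way in left legs (0.22 ± 0.39), and with the mean of both probes the difference was -0.07 ± 0.24. In the averaged vector comparison, the probes of a gene had 1 sign for 11 of the 20 members with more than 1 tested probe.

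The NHL-repeat members bind RNA or cargo through a propeller domain and are best known from neurons. Trim3, the one with the smaller p, gave 1.16, 1.18, 1.20, 1.20 and 1.51 on EV 1 to 5, and 1.00, 1.01, 1.25, 1.23 and 1.25 on HV 1 to 5. It gave 1.49, 1.31, 1.51, 1.27 and 1.69 on ES 1 to 5, and 1.32, 0.98, 1.47, 1.30 and 1.40 on HS 1 to 5. ES legs were higher than EV legs on 5 of 5 slides (0.20 ± 0.11, limma adjusted p = 1.00), within overlapping groups. Trim2, the other one measured, differed by 0.09 ± 0.15 with the vectors and 0.14 ± 0.20 with Scriptaid on both legs.

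Trim8, a regulator of cytokine and p53 signalling, gave 1.67, 1.74, 1.87, 1.84 and 1.79 on EV 1 to 5, and 1.99, 2.11, 2.02, 2.47 and 1.74 on HV 1 to 5. It gave 1.80, 1.71, 1.76, 1.84 and 1.81 on ES 1 to 5, and 1.68, 1.59, 1.81, 2.25 and 2.25 on HS 1 to 5. Left legs lay close together, with SDs of 0.08 and 0.05, and right legs spread more, with SDs of 0.26 and 0.32. The difference was 0.28 ± 0.14 in vehicle animals, higher in 4 of 5 (limma adjusted p = 1.00), and 0.21 ± 0.10 averaged over both arms (adjusted p = 0.469). Trim41, also under an unadjusted p of 0.05, differed by -0.14 ± 0.06 with the vectors (limma adjusted p = 0.413).

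The innate immune members include sensors of viral RNA signalling, restriction factors and regulators of inflammatory signalling. Of 21 listed, 13 were tested and 0 passed in any comparison. With the vectors over both arms 4 were higher and 9 lower (median -0.03), and with Scriptaid on both legs 10 were higher and 3 lower (median 0.09). Trim25, which marks the RNA sensor RIG-I with ubiquitin, gave 0.84, 0.67, 0.98, 0.56 and -2.56 on EV 1 to 5, and 0.76, 0.75, 0.99, 0.57 and 1.25 on HV 1 to 5. It gave 1.11, 0.81, 1.20, 0.76 and 1.07 on ES 1 to 5, and 1.16, 0.74, 1.22, 0.91 and 1.14 on HS 1 to 5. One array, EV 5, set the EV mean of 0.10 ± 1.49 (SD, n = 5), and that array had the most low spots. The difference of ES from EV was 0.89 ± 0.46 (limma adjusted p = 1.00), and it was 0.22 without EV 5.

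Trim65, which acts on the RNA sensor encoded by Ifih1, gave -0.20, -0.13, -0.06, -0.35 and -0.00 on EV 1 to 5, and -0.55, -0.62, -0.25, -0.57 and 0.04 on HV 1 to 5. It gave -0.04, 0.03, 0.39, -0.02 and -0.15 on ES 1 to 5, and -0.08, -0.17, 0.05, 0.01 and -0.19 on HS 1 to 5. HV 1, 2 and 4 were the low arrays. HS differed from HV by 0.32 ± 0.13 (limma adjusted p = 0.619), higher on 4 of 5 slides, and Scriptaid animals differed by 0.25 ± 0.12 on the mean of both legs (adjusted p = 0.965).

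Left and right legs of an animal were compared for each gene read on every array, 12820 genes and 35 members. By the exact permutation test 0 members passed, and 0% of all genes, with p adjusted over all of them. The smallest p this test can give is 6.94e-05, so after that adjustment no gene could pass alone. At an unadjusted p under 0.05 there were 13 members (37.1%), beside 19.8% of all genes. The innate members Trim30a, Trim30d and Trim12a had the smallest p. Trim30a, a mouse regulator that dampens inflammatory signalling, gave -1.51, -1.36, -1.83, -2.24 and -1.21 in the left legs of vehicle animals 1 to 5, and -1.63, -1.42, -1.61, -2.16 and -1.26 in the right. In Scriptaid animals 1 to 5 it gave -1.10, -1.82, -1.08, -1.78 and -1.31 in the left legs, and -1.36, -1.63, -1.14, -1.83 and -1.15 in the right. Vehicle animal 4 was lowest in both legs. Left and right legs correlated over the 10 animals, as deviations from the arm's mean, with r = 0.91 (exact permutation p = 0.00257 within arms; rho = 0.88, p = 0.00597; r = 0.84 without the 2 farthest animals).

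Trim30d, its neighbour and close relative, gave r = 0.87 (exact permutation p = 0.00306; rho = 0.89, p = 0.00264; r = 0.74 without the 2 farthest). Trim12a, a mouse relative of the retroviral restriction factor, gave r = 0.89 (exact permutation p = 0.00326; rho = 0.90, p = 0.0025; r = 0.80 without the 2 farthest). The adjusted p of these 3 lay between 0.101 and 0.106 by the exact permutation test. Of the 35 members, 12 had r above 0.7, where 15.7% of all genes did, and the median r was 0.56 against 0.37.

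Both legs of an animal were hybridised on 1 slide, so slide and animal are partly shared. Within a slide, the Scriptaid animal minus the vehicle animal gave for Trim30a 0.40, -0.47, 0.75, 0.46 and -0.10 in left legs, and 0.27, -0.21, 0.46, 0.33 and 0.11 in right legs. The sign was the same in both legs on 4 of 5 slides for Trim30a and 5 of 5 for Trim30d. A relation within slides over fewer than 6 animals was not tested. A slide term passed limma's F test for 6 of 38 members, where 9.25% of all genes passed: Trim45, Trim17, Trim30d, Trim5, Trim30a and Trim2. Trim17 was well above background on only 9 of 20 arrays and Trim5 on 5, so their slide terms rest mostly on background values. Trim45 ran from -0.94 to -0.30 on slides 2 and 4, and from -3.69 to -1.37 on the other 3 (limma adjusted p = 0.0216 for the slide term).

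The mean of both legs was then set against the mean of 17 interferon-stimulated genes, none of them a member, over the 10 animals. On EV 5, the array with the most low spots, 2 of these genes read far under all other arrays. Ifit1 read -6.34 there, against -3.81 on HS 1, its next lowest, and Zbp1 -6.21, against -4.61 on EV 3. Both lower the mean of vehicle animal 5, and the relations were not recomputed without them. By the exact permutation test 0 of 35 members passed, and 0% of 12803 genes. The same smallest p of 6.94e-05 held, so here too no gene could pass alone. At an unadjusted p under 0.05 there were 6 members, all innate, beside 8.92% of all genes. Trim21, the antibody receptor of the cytosol, had the smallest p (r = 0.89, exact permutation p = 0.00118 within arms, adjusted p = 0.52; rho = 0.88, p = 0.00174). Without the 2 farthest animals r was 0.84. Trim5 gave r = 0.84, Trim30d 0.76, Trim30a 0.74, Trim12a 0.73 and Trim56 0.73. Each had an exact permutation p between 0.0156 and 0.0308 and adjusted p between 0.52 and 0.538. Trim5 was well above background on only 5 of 20 arrays, so its r rests mostly on background values. Among the 13 innate members 11 had a positive r (median 0.65), and among the 22 others 8 did (median -0.20), where 50.8% of all genes did. The permutation kept animals within arms but not within slides, and 2 animals share a slide. Within slides 1 to 5, the Scriptaid animal minus the vehicle animal gave -0.17, -0.10, 0.06, 0.35 and 0.01 for Trim21, and -0.34, -0.15, 0.25, 0.06 and 0.07 for the mean of the interferon-stimulated genes. The signs were the same on all 5 slides, and the order of the sizes differed. A relation over 5 slides was not tested. Of 23 interferon-stimulated genes listed 18 were tested and 0 passed limma's test in any comparison.

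**Figure D4:**
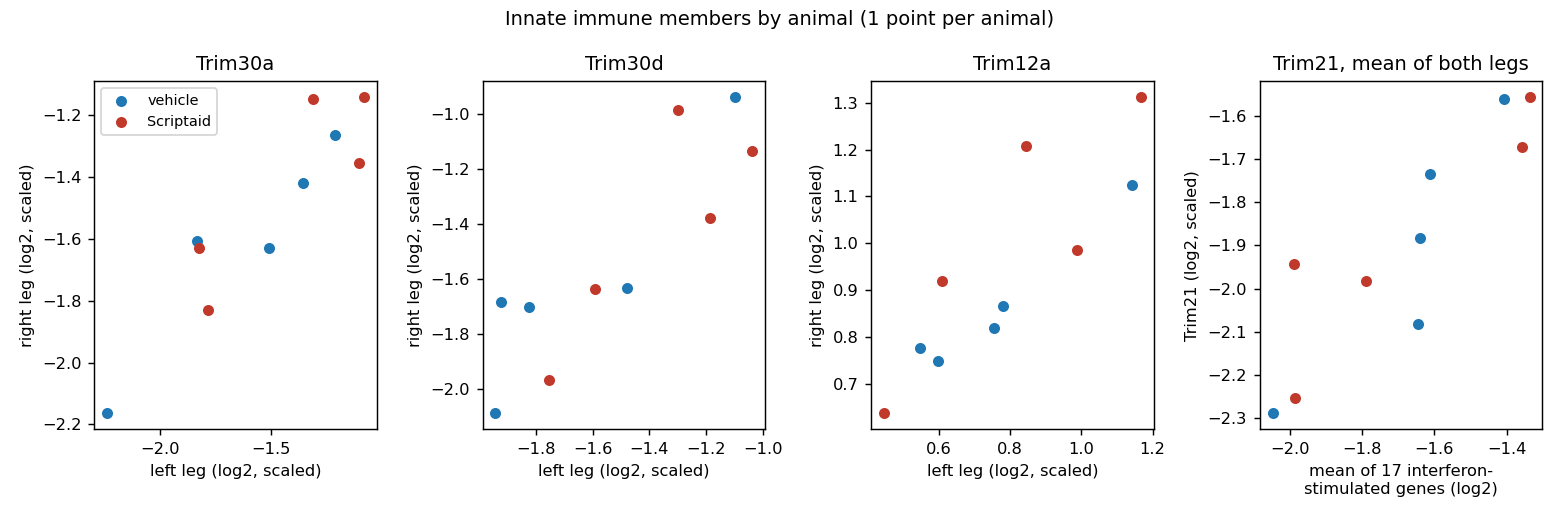
Left-leg against right-leg log2 value of Trim30a, Trim30d and Trim12a, and mean of both legs of Trim21 against the mean of 17 interferon-stimulated genes, with 1 point per animal coloured by drug arm. Points of both arms rise together in each panel (r = 0.91, 0.87, 0.89 and 0.89).

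The 250 bases before the start, from RefSeq on GRCm38.p6, were searched on both strands for the interferon-stimulated response element written as GAAANNGAAA (TTTCNNTTTC on the other strand). Of the 38 members 28 had a promoter in the table, and 5 of them held a match: Trim5, Trim12c, Trim26, Trim30a and Trim30d, all innate members. It was held by 936 of all 27025 genes with a promoter there (3.46%), and by 2.98% of all 32851 promoters. The 4 from the cluster on chromosome 7 are shown because they place the match near the start in a shared stretch; capitals mark the match, and all are on the minus strand.
Trim30a (chr7:104465194-104465443): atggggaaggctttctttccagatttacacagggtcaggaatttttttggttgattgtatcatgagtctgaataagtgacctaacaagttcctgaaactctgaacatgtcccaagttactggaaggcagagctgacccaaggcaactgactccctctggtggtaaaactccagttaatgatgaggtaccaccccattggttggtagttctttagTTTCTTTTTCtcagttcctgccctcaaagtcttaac
Trim30d (chr7:104507850-104508099): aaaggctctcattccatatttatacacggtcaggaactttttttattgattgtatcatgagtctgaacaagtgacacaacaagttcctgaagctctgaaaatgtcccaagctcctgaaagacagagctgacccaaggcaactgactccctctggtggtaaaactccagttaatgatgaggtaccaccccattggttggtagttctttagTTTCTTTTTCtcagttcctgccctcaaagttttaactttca
Trim5 (chr7:104288107-104288356): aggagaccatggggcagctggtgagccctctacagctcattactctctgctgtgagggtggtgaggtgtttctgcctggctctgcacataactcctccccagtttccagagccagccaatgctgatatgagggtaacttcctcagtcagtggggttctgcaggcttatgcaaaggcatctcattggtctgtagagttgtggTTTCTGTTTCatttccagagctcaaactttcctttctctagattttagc
Trim12c (chr7:104353350-104353599): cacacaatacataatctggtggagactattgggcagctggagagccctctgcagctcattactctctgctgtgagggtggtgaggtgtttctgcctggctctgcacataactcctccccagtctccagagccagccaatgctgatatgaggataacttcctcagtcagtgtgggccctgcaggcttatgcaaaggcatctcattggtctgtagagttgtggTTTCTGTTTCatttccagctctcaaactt
The match begins 36 bases before the start in Trim30a, 41 in Trim30d, 49 in Trim5 and 29 in Trim12c. Trim30a and Trim30d share a run of 118 bases that holds it. The longest run that Trim5 and Trim12c share, of 71 bases, lies farther upstream and does not hold the match. Their match lies in a shorter shared stretch. Trim30a has a second promoter in the table with no match. Trim12a and Trim21 had no match in this window. MEF2 sites, searched because class IIa deacetylases act through MEF2, were found in 1 of the 28 (Trim39), where 3.42% of all genes held one; Trim35 and Trim16 had no promoter in the table.

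Near-identical paralogs limit how these members can be told apart. Compared base by base from their first base, the probes of Trim30a and Trim30d agree at 10 to 23 of 60 positions. Those of Trim12a and Trim12c agree at 8 or 12. The comparison did not look for shifted overlap, so it cannot tell whether the probes of a pair read different stretches. Whether a probe also binds the transcript of a near-identical copy was not tested. The r of Trim12c with the interferon-stimulated genes was -0.12 (exact permutation p = 0.743; rho = -0.31, p = 0.425).

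The erythroid member Trim10, which acts in red cell maturation, was dim in most muscles and was not tested. It read -0.81 on EV 1, 1.09 on HS 1 and 0.06 on HS 2, and between -6.65 and -4.26 on the other 17 arrays. EV 1 and HS 2 were also the 2 arrays with high sums of red blood cell, Schwann cell, fibroblast and tendon, and lymphocyte markers. Among red cell genes, Slc4a1, the anion exchanger of red cells, read 2.23 and 2.93 there, against -4.90 to -3.01 elsewhere. HS 1, the brightest for Trim10, had a summed marker level of 1.46, within the range of the other arrays. Trim59, a membrane-anchored member, was above background on the same pair, at -2.76 on EV 1 and -1.12 on HS 2 with 1 probe and -3.24 and -3.39 with the other. On the other 18 arrays these probes stayed between -6.08 and -3.91 and between -7.18 and -4.98. The part of any of these cells in the values of Trim10 and Trim59 was not tested.

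**Figure D5:**
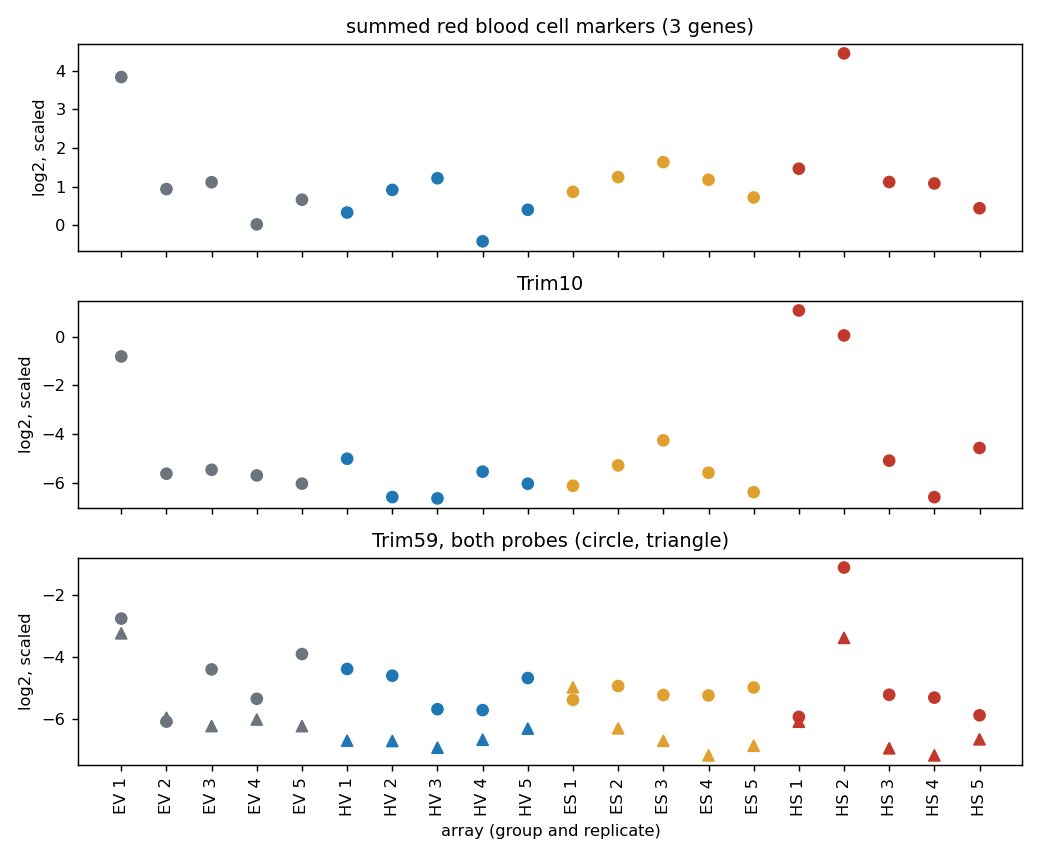
Summed red blood cell markers (3 genes), Trim10 and both probes of Trim59 on each of the 20 arrays, on the log2 scale, coloured by group. All 3 panels rise on EV 1 and HS 2, and Trim10 rises on HS 1 as well.

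No partner of the family passed. Of 21 ubiquitin genes and activating or conjugating enzymes listed, 21 were tested and 0 passed in any comparison; with the vectors over both arms 14 were higher and 7 lower (median 0.03), and with Scriptaid on both legs 12 and 9 (median 0.03). Of 7 relatives under other names 6 were tested and 0 passed, among them Trim63, the best known muscle RING finger protein (0.24 ± 0.31 with the vectors and 0.66 ± 0.40 with Scriptaid; limma adjusted p = 0.857 and 0.965).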

How the data were processed

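Messenger RNA of 20 EDL muscles was read on 1-colour arrays of 45018 spots, from 100 ng of input RNA labelled with Cy3, per the labels' protocols. The authors deposited scanner intensity values, background-subtracted by Agilent Feature Extraction 9.5.1.1 per the file headers, and a series matrix of a ratio, the intensity over 1 constant per array. Spots in columns 1 to 77 and rows 11 to 522 were kept, and flagged spots were left out. Outside that area the probes of some members read lower on HS arrays and those of others higher. From log2 of the processed intensity each array's 75th percentile was subtracted; a probe needed to be well above background on at least 5 arrays and to keep at least 3 arrays in each group. A gene was represented by its brightest probe on average. limma 3.58.1 (R 4.3.3) fitted the 4 group means with moderated variances and two-sided tests, and p was adjusted by Benjamini-Hochberg over all genes, with calls under 0.05. The fit was tested on simulated data. The Scriptaid comparison on both legs used the mean of an animal's legs and leaves out animals with a missing spot. Relations of genes over animals used exact permutation within drug arms, adjusted over all genes read on every array (Python 3.11.15).

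Members and lists were chosen with earlier results of these data known. Values on every array are given for muscle and chromatin members, every member called, and the 3 of smallest p in each comparison; others are named from role lists, and Trim10, Trim59, Trim45 and the relations over animals were added after values were seen. Of the 95 member probes, 75 accessions matched a current symbol, each the same as the file's. The replicate number marks the 2 legs of 1 animal and 1 slide, per the animal identifiers in the labels and the file headers: legs of an animal correlated in their deviations from the group means with r of 0.02 to 0.43 (median 0.29), and 2 animals of a slide with 0.04 to 0.41 (median 0.17). Each group always had one fixed position on the slides, so position and group cannot be told apart. Precision is limited by the 5 arrays of a group. The probe sequences of Trim35 are not reported here.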

Additional observations from a re-analysis of the deposited data

Results flagged for a closer look

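In 13 of 151 sets of a member and a group (8.61%; chance gives about 5%) 1 array lay apart from the others by Dixon's test. On EV 5, the array with the most low spots, Trim25 read -2.56 and Trim62 -4.92, both under the rest of their group, while Trim3 (1.51) and Trim68 (0.925) read above it. On EV 1, an array with high red blood cell markers, Trim28 (0.803) and Trim26 (1.52) were low. On HV 4, Trim11 (0.318) and Trim2 (-1.79) were low, and on HV 3 so was Trim12c (-4.01). Among ES arrays, Trim14 was high on ES 2 (-3.76) and Trim33 on ES 3 (0.849), and Trim27 was low on ES 5 (-2.33) and Trim44 on ES 4 (0.457).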

How the results depend on the processing

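The count of members called was 0 under every alternative run for the vector in vehicle animals, the vector in Scriptaid animals, Scriptaid in left legs, in right legs and on both legs, and the interaction. For the vectors over both arms 1 member was called; the count was 0 with normexp background correction and with the mean of all probes, and 2 with quantile normalization, the authors' series matrix values, edge spots included or outlier flags kept, where Trim16 joined Trim35. Leaving out 1 array gave 0 to 2. Without EV 1 and HS 2 the count stayed at 1, but it was Trim16 and not Trim35. With the replicate block the call of Trim35 was kept (limma adjusted p = 0.0189 by slide, 0.0358 by animal), Trim16 was not called (0.0543 and 0.0769), and no other call changed. The changes of Trim35, Trim16, Trim8, Trim66, Trim13, Trim25, Trim3, Trim55, Trim65, Trim7 and Trim28 that were recomputed kept their direction under the alternatives run; those of Trim54, Trim24, Trim33, Trim2, Trim41 and Trim63 were not recomputed. No member passed the correlation of left with right legs, adjusted over all genes, under the alternatives run. Signal over background limits Trim5, Trim6, Trim14 and Trim17.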
